A study of Mus musculus with 150 samples.

Results

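Choroid plexus of the inbred mouse strains 129 and B6 was compared on 2 arrays of each strain. A gene was counted as apart when both values of one strain lay above both values of the other, and its difference was then set against the 129 minus B6 difference in 19 other neural tissues that had arrays of both strains. Of the 8251 genes on the array, 4149 were apart in choroid plexus. Among the 4545 genes bright enough to test, 2983 were apart, of which 1232 were higher in 129 (27.1% of the genes tested) and 1751 were higher in B6 (38.5%). The other 1166 genes that were apart lay below the brightness limit and were not tested. With 2 values a strain, genes with no strain difference can also be apart, so these counts are given with a test of size beside them.

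The series measured gene expression in adult mouse tissues on 150 arrays of a single platform, from total RNA converted to biotin-labelled cRNA. All mice were inbred and wild type, and no treatment is named. The choroid plexus arrays of 129 carry the number ranges 11 to 20 and 16 to 30 in their titles, and so do those of B6; the labels do not say what the numbers count, so whether RNA of several mice was pooled is not known. Strain B6 is also written BL6, the 129 substrain is not given, and neither are sex and exact age. The 2 arrays of a strain are called replicates 1 and 2 here, and because nothing states that they came from separate animals, their spread may be partly technical. The comparison tissues had 37 arrays of 129 and 39 of B6. Beside these, 10 body tissues had 1 array of each of 5 strains, which were 129, B6, AJ, C3H and DBA.

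The choroid plexus is a sheet of secretory epithelium over a core of leaky capillaries, fibroblasts and macrophages in the brain ventricles. Its epithelium makes cerebrospinal fluid by moving ions and water, and secretes carriers such as transthyretin and growth factors such as IGF2. Because the tissue is small and floats beside the ventricle wall, a dissection can carry some neighbouring brain tissue. The strains 129 and B6 are long separated inbred lines that differ at many sequence variants and copy number variants, and a variant inside the stretch read by a probe can change the signal without a change in the amount of RNA. Whether a difference in signal reflects RNA amount or probe binding was not tested.

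The leading markers of the labelled tissue were far above the brightness limit, an intensity of 53.2, on all 4 arrays. Transthyretin (Ttr) read 19243 and 18242 in 129 and 17903 and 16105 in B6, and the folate receptor gene Folr1 read 5127 and 5794 against 6325 and 8005. The summed signal of 20 epithelial markers ran from 60535 to 65852, with no marker at the floor in all 4 arrays. The floor is an intensity of 10.4, to which lower values were raised.

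The 4 arrays differed in how much signal from brain cells they carried. The summed signal of 14 neuronal genes was 3836 in 129 replicate 1, 881 in 129 replicate 2, 1528 in B6 replicate 1 and 745 in B6 replicate 2. Snap25, a membrane protein of synaptic vesicle fusion, read 1046 and 103 in 129 against 195 and 1.25 in B6. Replicate 1 of 129 therefore stands apart for neuronal genes, and its effect on counts is given below. Beta-actin signal at the 3' end over the 5' end, a measure of RNA integrity, was 1.46 and 1.27 in 129 and 1.16 and 0.991 in B6. Both 129 arrays were above both B6 arrays in this ratio. With it as a covariate in the comparison with other tissues given below, 765 genes were shifted towards 129 and 853 towards B6, beside 776 and 843 without it. The effect of the ratio in that fit is set mostly by the other tissues, because in choroid plexus it goes with strain. Whether RNA integrity shaped the choroid plexus differences was not tested. The 3' over 5' ratio for Gapdh was 0.941 and 0.903 in 129 and 0.875 and 0.910 in B6. Across the genes tested, log2 values correlated at 0.969 between the 129 arrays and 0.968 between the B6 arrays, and at 0.876 to 0.926 between strains.

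By the size of the differences, the strains were further apart in choroid plexus than in any of the 19 other neural tissues. The share of genes apart at any size was 65.6% in choroid plexus. It was higher in hippocampus, at 72.8% with 1 array of 129 left, and ran from 20.9% in CA1 to 62.1% in hypothalamus in the others. In choroid plexus 1143 genes were apart by 1.5-fold or more, 614 higher in 129 and 529 higher in B6. In the other tissues the same count ran from 171 in CA3 to 485 in cerebellum. The standard deviation over genes of the log2 difference was 0.61 in choroid plexus and 0.29 to 0.42 elsewhere. The spread between the 2 arrays of a strain was 0.36 for 129 and 0.41 for B6 in choroid plexus. Both lay above the median of 0.29 over 36 pairs of arrays in other tissues, which ranged from 0.22 to 0.55. When each tissue was given its own set of bright genes, the counts in the other tissues were 142 to 507.

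**Figure D1:**
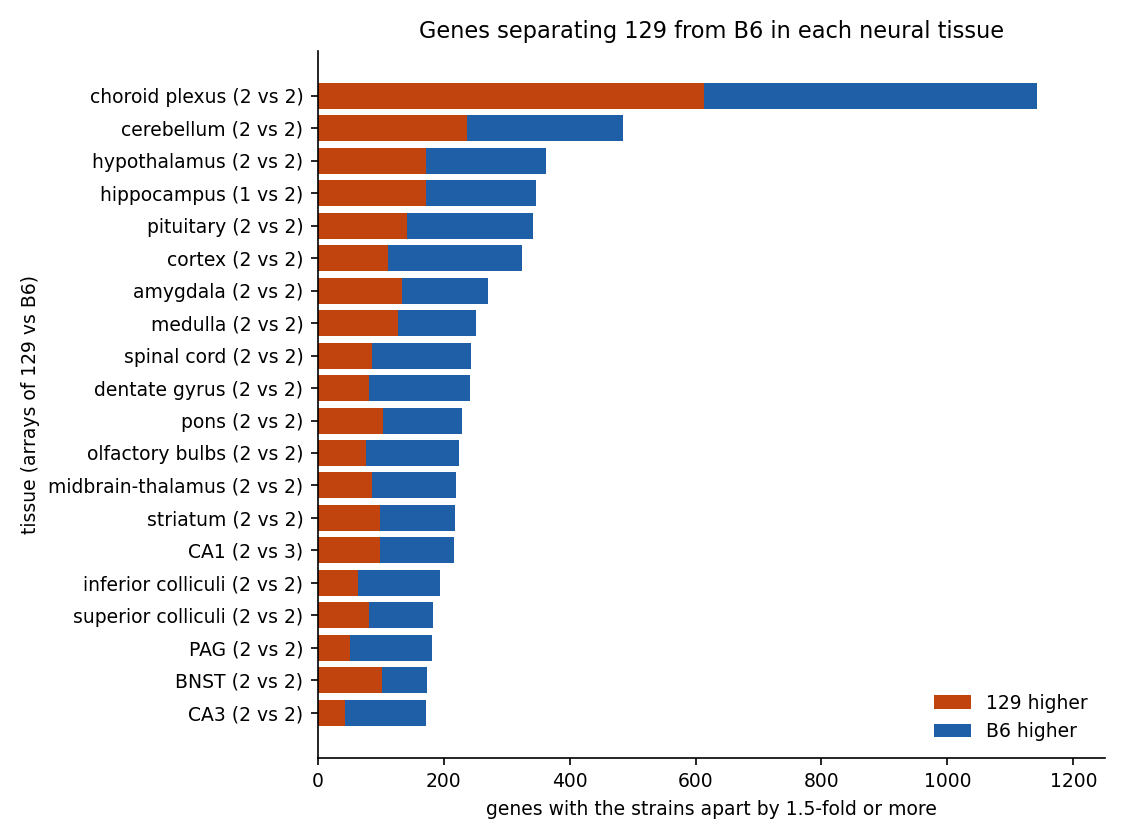
Number of genes whose arrays of one strain all lay above those of the other by 1.5-fold or more, for each neural tissue with both strains, split into genes higher in 129 and higher in B6; the same 4545 genes were counted everywhere. Choroid plexus had 1143 such genes and cerebellum, the next, 485; hippocampus had 1 array of 129 left and CA1 had 3 of B6.

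A moderated test gave the size of the difference its error. With limma on the 4 arrays, at a Benjamini-Hochberg adjusted p of 0.05 and 1.5-fold, 439 genes were higher in 129 (9.66% of the genes tested) and 383 were higher in B6 (8.43%). In the 19 other neural tissues together, with tissue as a term, 24 of the same genes were higher in 129 (0.528%) and 69 were higher in B6 (1.52%). Most genes called in choroid plexus were thus not called elsewhere: 13 of the 439 and 40 of the 383 were called the same way in the other tissues. The difference between tissues was also tested directly. The strain difference in choroid plexus was shifted towards 129 relative to the other tissues in 776 genes (17.1%) and towards B6 in 843 (18.5%) at a limma adjusted p of 0.05, with no limit on size. Of these, 58 and 33 genes had overlapping strains in choroid plexus, because this fit takes its spread mostly from the other tissues.

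The choroid plexus counts rested on single arrays to a large extent. A fit without an array has 1 array in a strain, which is assumed to vary like the pair of the other strain, so a call kept there says little about that strain's own spread. Without B6 replicate 2, limma called 255 genes higher in 129 and 150 higher in B6, and without 129 replicate 1, the array with the most neuronal signal, it called 322 and 227. Without B6 replicate 1 the counts were 597 and 599. Of the 439 genes, 246 were called again without B6 replicate 2 and 300 without 129 replicate 1; of the 383 genes, 143 and 185 were. None changed sign and was called in any of the 4 fits that left out an array.

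Genes that separated the strains in the other neural tissues were compared with choroid plexus, where 38.5% of all genes tested were apart with B6 higher and 27.1% with 129 higher. Of the 69 genes higher in B6 in the other tissues, 52 (75.4%) were apart the same way in choroid plexus and 5 (7.25%) the opposite way. Of the 24 genes higher in 129 there, 17 (70.8%) were apart the same way and 3 (12.5%) the opposite way. Over these 93 genes the differences in choroid plexus and in the other tissues correlated at a Pearson r of 0.73, and over all 4545 genes at 0.24. Both are descriptions across genes, which are not independent replicates.

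**Figure D2:**
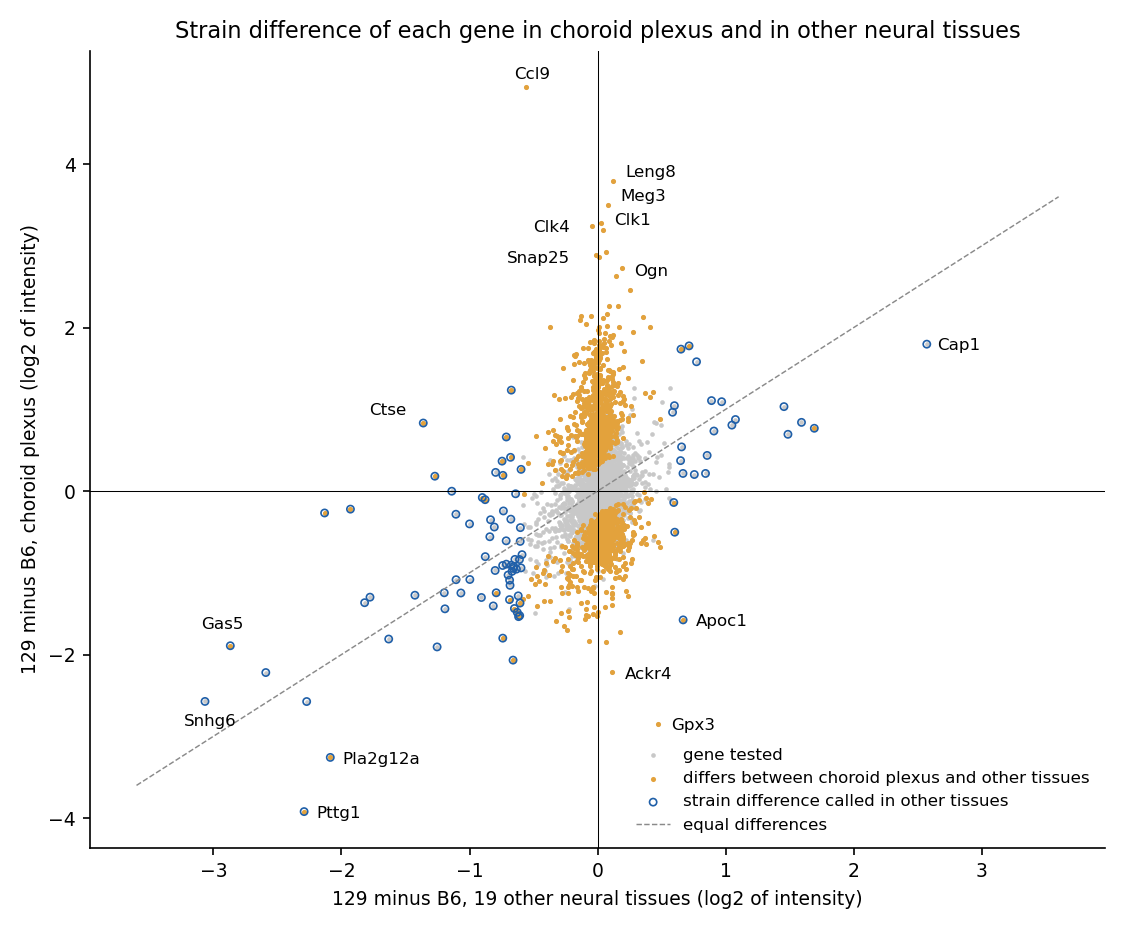
Each point is a gene, with its 129 minus B6 difference in the 19 other neural tissues (horizontal) and in choroid plexus (vertical), both in log2 of intensity. The largest positive differences in choroid plexus, led by Ccl9 at 4.94 and Leng8 at 3.80, lie near 0 or below on the horizontal axis, while Pttg1, Pla2g12a, Snhg6, Gas5 and Cap1 differ in both; Snap25, whose strains overlapped in choroid plexus, is among the genes that differ between tissues.

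Among the 12 genes apart with the largest excess in B6, 8 were called lower in 129 in choroid plexus, in the other neural tissues and in body tissues. The 12 were chosen for their size on these 4 arrays, which favours a larger difference here than elsewhere. Their tests against the other tissues are therefore given as descriptions. Pttg1, which encodes securin, the inhibitor of sister chromatid separation, read 90.3 and 58.9 in 129 and 963 and 1266 in B6. Its log2 difference was -3.92 ± 0.25 in choroid plexus (SE, n = 2 a strain; limma adjusted p = 0.00145) and -2.29 in the other neural tissues, where 129 was lower in 19 of 19 tissues. In body tissues it was lower by 1.67 on average, with 129 higher in 3 of 10 tissues. Pla2g12a, a secreted phospholipase A2, read 284 and 289 against 2456 and 3054, a difference of -3.26 ± 0.15 (limma adjusted p = 0.000474). The difference of both genes was larger in choroid plexus than elsewhere, by -1.63 and -1.17 (limma adjusted p = 0.000205 and 0.000955). Both statements rest on the brightest probe set: with the mean over a gene's probe sets neither call against the other tissues was kept. The second probe set of Pttg1 lay near the floor, with a mean log2 of 3.44, and differed by 0.13 in choroid plexus. That of Pla2g12a was brighter, at 7.12, and differed by -0.05.

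The small nucleolar RNA host genes Snhg6 and Gas5 were lower in 129 in all tissues. Snhg6 read 42.5 and 35.3 in 129 against 271 and 196 in B6, a difference of -2.57 ± 0.24 (limma adjusted p = 0.00314), and Gas5 read 99.5 and 133 against 467 and 392. Gas5 differed by -1.89 ± 0.20 in choroid plexus and by -2.87 in the other tissues, so its strain difference was smaller in choroid plexus by 0.98 (limma adjusted p = 0.00023). Another of its probe sets, dimmer, was higher in 129 by 0.49 in choroid plexus. The remaining members of this group were Arcn1, a subunit of the COPI vesicle coat, at -2.22, the mitochondrial ribosomal protein gene Mrps12 at -2.07 and the microsomal glutathione transferase Mgst1 at -1.91. A probe set that the annotation assigns to Mir686 differed by -2.57; it does not measure the mature microRNA. Mrps12 differed by -0.66 in the other tissues, and the excess of its difference in choroid plexus was -1.41 (limma adjusted p = 5.0e-08). That test is a description, because the gene was chosen for its size in choroid plexus. Its error comes mostly from the other tissues.

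Further genes lower in 129 in choroid plexus, other neural tissues and body tissues brought this group to 29 (7.57% of the 383). They included Apod, the lipid carrier apolipoprotein D, with 184 and 192 in 129 and 665 and 645 in B6. They also included Mgp, an extracellular inhibitor of calcification, with 568 and 537 against 1460 and 1466, and Cd59a, which blocks the complement membrane attack complex, with 578 and 713 against 1973 and 1539. Slc9a3r1, a scaffold of apical membrane transporters, read 486 and 484 against 1441 and 1371. No array of 129 reached an array of B6 in these 4 genes. Apod differed by -1.80 ± 0.15 in choroid plexus and by -0.74 in the other tissues.

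In body tissues as a whole, 55 genes were called higher in 129 (1.21%) and 94 higher in B6 (2.07%), over 10 tissues with 1 array of each strain. The genes called higher in 129 in choroid plexus, other neural tissues and body tissues alike numbered 10 (2.28% of the 439). They were Cap1, Eny2, Mau2, Clec16a, Fam32a, Gnb1, Glo1, Hnrnpl, Ocel1 and Alad. Both B6 choroid plexus arrays of Eny2, Mau2 and Clec16a lay under the brightness limit, so these genes were tested only because 129 was high. Cap1, an actin-binding cyclase-associated protein, read 272 and 293 in 129 against 99.1 and 66.5 in B6, a difference of 1.80 ± 0.23 (limma adjusted p = 0.00757), beside 2.57 in the other neural tissues. Glo1, the glyoxalase that detoxifies methylglyoxal, read 1705 and 2146 against 981 and 1108, a difference of 0.88 beside 1.08. Alad, an enzyme of heme synthesis, differed by 0.73 beside 0.91, but was not called without B6 replicate 2 or without either 129 array. For Glo1 and Alad the choroid plexus and the other tissues were not shown to differ (limma adjusted p = 0.32 and 0.44).

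The genes highest in 129 over B6 in choroid plexus had a different pattern. Of the 12 genes apart with the largest excess, none was called in the other neural tissues or in body tissues. Ccl9, which leaned the other way in the other neural tissues, lay just short of the 1.5-fold line there. The 12 were chosen for their size on these 4 arrays, which favours a positive difference from other tissues, so their tests against those tissues are given as descriptions. In 8 of the 12 (Ccl9, Clk4, Leng8, Mdm4, Meg3, Paxbp1, Rgs11 and Tia1) both B6 arrays lay under the brightness limit, so these genes were tested only because 129 was high. Among all 1232 genes apart with 129 higher this held for 88. Of the 12 genes with the largest excess in B6, Arcn1 and Snhg6 had both 129 arrays under the limit. The 12 genes were Ccl9, Leng8, Meg3, Clk1, Clk4, Mdm4, Paxbp1, Rgs11, Ogn, Rabgap1l, Ccnl2 and Tia1.

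Ccl9, a chemokine that attracts myeloid cells, had the largest difference of all. It read 567 and 696 in the 129 arrays and 17.2 and 24.3 in the B6 arrays, a difference of 4.94 ± 0.24 (limma adjusted p = 0.000474). In the other neural tissues 129 was lower by 0.56 on average, and 3 of 19 tissues had 129 higher. The choroid plexus difference exceeded that of the other tissues by 5.50 (limma adjusted p = 1.9e-16). In body tissues Ccl9 differed by 0.13 (adjusted p = 0.76).

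Several of these genes act in RNA splicing or stay in the nucleus as RNA. Clk1 and Clk4 encode kinases that phosphorylate the SR splicing factors, and Clk1 read 742 and 705 in 129 against 94.5 and 58.8 in B6. Clk4 read 192 and 147 against 20.1 and 15.6. The log2 differences were 3.28 ± 0.24 and 3.24 ± 0.28 (limma adjusted p = 0.00232 and 0.00279), beside 0.03 and -0.05 in the other tissues. Leng8 read 198 and 202 against 15.8 and 13.2, and Ccnl2, a cyclin found in nuclear speckles, read 648 and 722 against 111 and 139. Meg3, a maternally expressed imprinted long noncoding RNA, read 314 and 155 against 19.0 and 20.1, and Tia1, an RNA-binding protein of splicing and stress granules, read 154 and 153 against 30.9 and 32.6. Both 129 arrays lay far above both B6 arrays in all 6 genes. A second probe set of Meg3 differed by 4.52 and a second one of Clk4 by 2.21, both in the same direction.

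**Figure D3:**
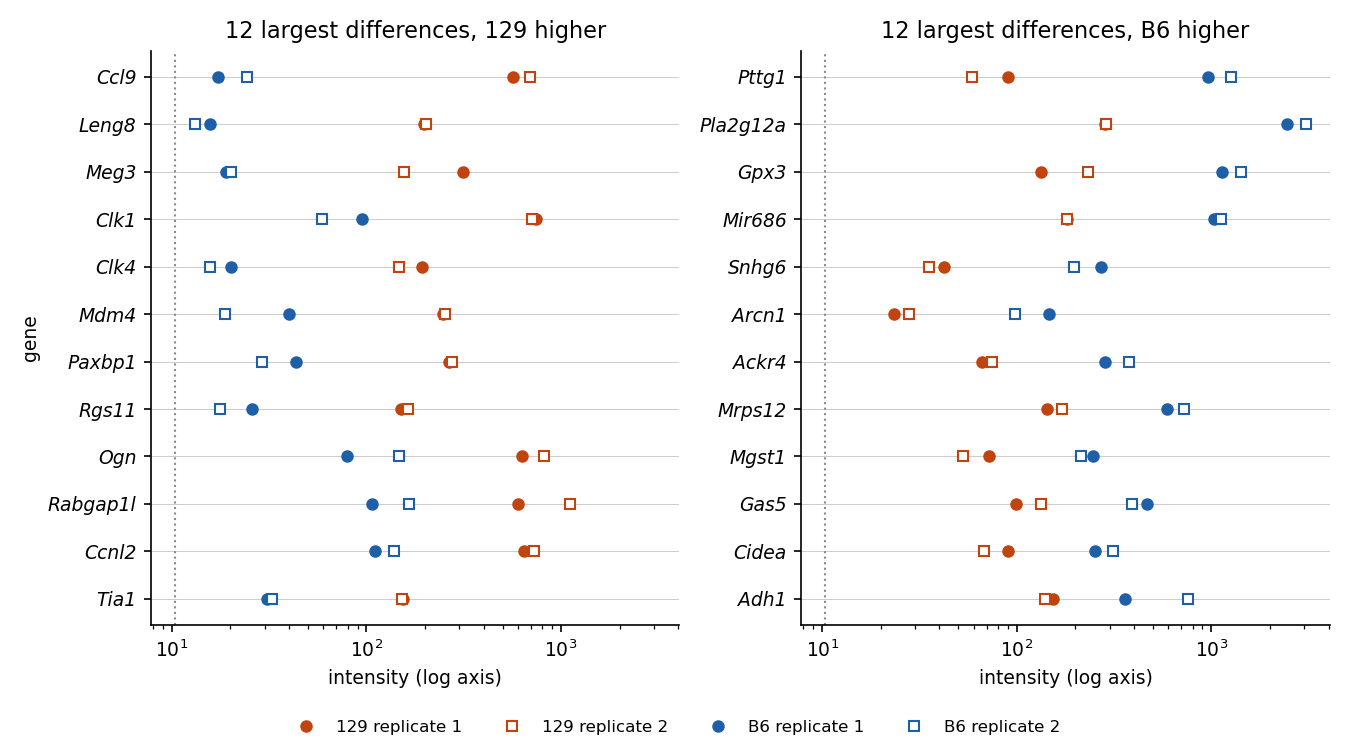
Intensity on each choroid plexus array, on a log axis, of the 12 genes with the largest excess in 129 (left) and in B6 (right); filled circles are replicate 1, open squares replicate 2, and the dotted line is the floor of 10.4. In every row both 129 points lie on the same side of both B6 points. For Ccl9 the 129 arrays read 567 and 696 and the B6 arrays 17.2 and 24.3.

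Promoters of genes with a large shift or excess towards 129 are shown as a description. The genes were chosen for that direction, and shared regulation was not tested. RefSeq windows in build GRCm38.p6, from 250 bases before to 50 after the start, were found for 10 of the genes with the largest shift or excess towards 129. Both strands were searched for the CREB site TGACGTCA, the ETS site CCGGAAG, the CCAAT box, the E-box CACGTG, the AP-1 site TGACTCA, the NRF1 motif and the ERSE motif, which begins with CCAAT. The CREB letters stood in the windows of Clk4 and Meg3 (20.0%, against 2.78% of 3707 windows of genes tested and 1.62% of all 27025 windows). The ETS letters stood in those of Leng8 and Ccnl2 (20.0%, against 15.3% and 7.05%). The AP-1 letters stood in those of Leng8 and Mdm4 (20.0%, against 2.94% and 4.43%), the NRF1 letters in that of Paxbp1 (10.0%, against 1.59% and 0.781%) and CCAAT in 3 (30.0%, against 35.7% and 34.5%). The E-box and ERSE letters stood in none of the 10. With 10 windows, 1 match is 10.0%. Stretches of 3 of these promoters are printed for CREB and ETS; each ends at the base before the start, with the matched letters of either strand in capitals.
Clk4, chr11:51262964-51263113, plus strand, CREB letters: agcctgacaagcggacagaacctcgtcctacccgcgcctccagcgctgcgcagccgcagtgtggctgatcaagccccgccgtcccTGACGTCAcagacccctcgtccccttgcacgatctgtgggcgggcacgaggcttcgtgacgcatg
Meg3, chr12:109540846-109540995, plus strand, CREB letters: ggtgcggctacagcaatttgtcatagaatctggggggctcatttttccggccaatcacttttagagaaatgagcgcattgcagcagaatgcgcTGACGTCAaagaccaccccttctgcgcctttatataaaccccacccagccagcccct
Ccnl2, chr4:155812339-155812488, plus strand, ETS letters: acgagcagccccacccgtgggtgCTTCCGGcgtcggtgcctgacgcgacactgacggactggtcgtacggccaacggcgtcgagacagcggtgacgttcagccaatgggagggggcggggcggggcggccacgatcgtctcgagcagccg

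Over all genes shifted towards 129 the motifs were near the background. The CREB letters stood in 3.41% of 615 windows of genes shifted towards 129 and in 2.82% of 709 shifted towards B6. The ETS letters stood in 15.1% and 19.2%, and the AP-1 letters in 3.09% and 3.53%. A match of letters in a window is a description and not a bound site.

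A list of splicing and nuclear RNA genes is described next. It was drawn up with earlier results of these data known, so its direction is not independent evidence. Of 18 listed genes on the array 15 were tested. All 15 were apart with 129 higher (27.1% of all genes tested), 10 were called higher (9.66% of all) and none lower, and the median difference was 1.17, beside -0.02 in the other neural tissues and -0.08 over all genes tested in choroid plexus. The 10 include Clk1, Clk4 and Meg3, and all were called again in every fit that left out an array. Both B6 arrays of Clk4, Luc7l2, Meg3 and Srsf1 lay under the brightness limit. The median over the list lay between -0.32 and 0.23 in each of the 19 other tissues.

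The members differed in size. Among the SR proteins, which bind pre-mRNA and guide splice site choice, Srsf1 read 121 and 120 in 129 against 46.7 and 27.3 in B6, a difference of 1.75 ± 0.30 (limma adjusted p = 0.0137). Srsf5 read 945 and 872 against 445 and 171, a difference of 1.72 that was 1.03 without B6 replicate 2. Srsf2, Srsf3, Srsf6 and Tra2b differed by 0.33, 0.62, 0.13 and 0.56 and were not called. Luc7l2, a U1 snRNP-associated factor, Rbm39, an RNA-binding coactivator, Son, a scaffold of nuclear speckles, and Ddx5, an RNA helicase, differed by 1.70, 1.12, 1.17 and 1.06 and were called. Son read 389 and 377 against 157 and 185, and Ddx5 1194 and 1122 against 586 and 529. In 13 of the 15 genes the choroid plexus difference was above that of each of the 19 other tissues. The choroid plexus difference lay outside the range of those tissues, above or below, in 65.1% of all genes apart with 129 higher. Over all genes tested it did so in 44.6%.

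**Figure D4:**
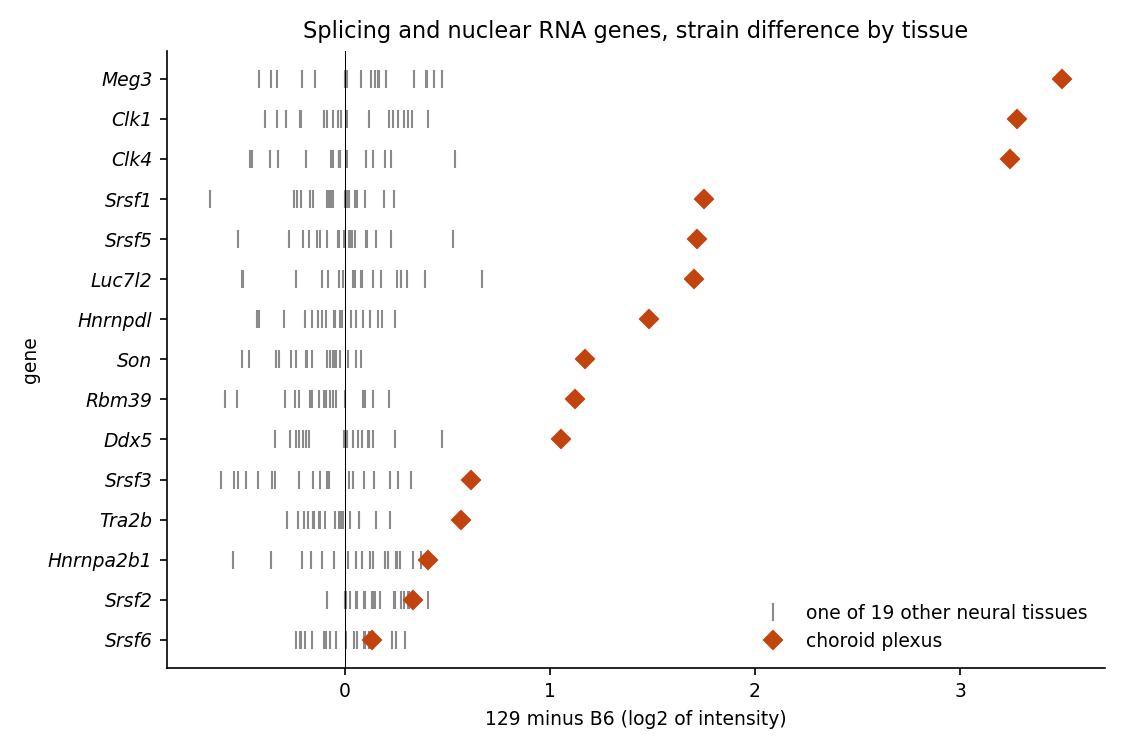
129 minus B6 difference (log2 of intensity) of 15 splicing and nuclear RNA genes, with choroid plexus as a diamond and each of 19 other neural tissues as a tick. The other tissues lie between -0.66 and 0.67 for every gene, while 10 genes in choroid plexus lie at 1.06 or above.

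The other genes of the leading 12 had different roles. Mdm4, an inhibitor of p53, read 247 and 254 in 129 against 39.9 and 18.8 in B6, and the G protein regulator Rgs11 read 151 and 163 against 25.7 and 17.6. Paxbp1 differed by 2.93 and Rabgap1l, a Rab GTPase-activating protein, by 2.63. Ogn, a small proteoglycan of connective tissue, read 628 and 821 against 79.5 and 147, a difference of 2.73 ± 0.30 (limma adjusted p = 0.00521) beside 2.07 in a second probe set. A second probe set of Mdm4 lay near the floor and differed by -0.09.

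The genes higher in B6 in choroid plexus but not elsewhere had other functions. Gpx3, the secreted glutathione peroxidase, read 134 and 232 in 129 against 1132 and 1425 in B6, a difference of -2.85 ± 0.27 (limma adjusted p = 0.00315). In the other neural tissues it was higher in 129 by 0.47, in 17 of 19 tissues, below the 1.5-fold line. The difference between choroid plexus and those tissues was -3.32 (limma adjusted p = 3.5e-11), a description because Gpx3 was chosen for its size in choroid plexus. Ackr4, a scavenging chemokine receptor, read 66.0 and 74.9 against 283 and 378, a difference of -2.22 beside 0.12 elsewhere. Cidea, a lipid droplet protein best known from brown fat, read 90.1 and 67.9 against 251 and 313, and the alcohol dehydrogenase Adh1 read 153 and 139 against 360 and 757. All 4 genes were called in choroid plexus in every fit that left out an array.

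Dlk1 and Meg3 lie in the same imprinted domain, with Dlk1 expressed from the paternal and Meg3 from the maternal chromosome. Dlk1 read 1122 and 1046 in 129 against 3277 and 2962 in B6, a difference of -1.52 ± 0.13 (limma adjusted p = 0.00279), where Meg3 differed by 3.50 ± 0.35 (adjusted p = 0.00374). In the other neural tissues the differences were -0.0047 for Dlk1 and 0.08 for Meg3. The pair was thus apart in opposite directions in choroid plexus, and neither was called elsewhere.

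Cell type markers were compared because a dissected tissue is a mixture, in which fewer cells of a type and less RNA per cell cannot be told apart. Of 20 epithelial markers tested, 3 were apart with 129 higher and 12 with B6 higher, where 27.1% and 38.5% of all genes tested were. Limma called 2 higher in 129 and 3 higher in B6, beside 9.66% and 8.43% of all genes, and the median difference was -0.22 beside -0.08. Angiotensin-converting enzyme (Ace) read 958 and 1230 in 129 against 1790 and 2287 in B6, a difference of -0.90 ± 0.18 (limma adjusted p = 0.0203). Krt18, a keratin of simple epithelia, read 465 and 526 against 941 and 880, and Cox8b, a cytochrome oxidase subunit, 200 and 253 against 349 and 518. The serotonin receptor Htr2c was higher in 129, with 204 and 216 against 146 and 110, as was Calml4, with 3260 and 3349 against 2280 and 2124. Only Krt18 kept its call in all 4 fits that left out an array.

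Of 10 macrophage genes tested, 9 were apart with B6 higher (38.5% of all genes tested) and 5 were called lower in 129 (8.43% of all), with a median of -1.04, beside -0.32 in the other neural tissues. The complement component C1qa read 140 and 119 in 129 against 260 and 499 in B6, a difference of -1.48 ± 0.30 (limma adjusted p = 0.0208). C1qb differed by -1.44, Laptm5 by -1.16 and the receptor Csf1r by -0.66, and the protease Ctss read 159 and 119 against 236 and 319. The C1q genes were also lower in 129 elsewhere, C1qa by 0.63 with 129 lower in 19 of 19 tissues. The summed signal of 16 macrophage genes was 1272 and 1083 in 129 and 1854 and 2966 in B6, so B6 replicate 2 was the highest, and without it only C1qa was called. Cd52, a surface glycoprotein of leukocytes, read 42.2 and 49.8 against 78.6 and 292, also highest in B6 replicate 2, and was not called in choroid plexus (limma adjusted p = 0.0699). Both of its 129 arrays lay under the brightness limit, so it was tested only because B6 was high.

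Neuronal genes did not separate the strains. Of 6 tested none was apart (27.1% of all genes tested were with 129 higher and 38.5% with B6 higher). Limma called none in choroid plexus, with 0 at an unadjusted p under 0.05, beside 1681 of all 4545 genes tested. Against the other tissues 3 were shifted towards 129 (17.1% of all genes tested). The median difference of the 6 genes was 0.72 on all 4 arrays, -0.11 without 129 replicate 1 and -0.09 without B6 replicate 2. It was 2.26 without 129 replicate 2, with 4 called higher in 129, and 1.81 without B6 replicate 1, with 1 called. Among astrocyte genes, Gja1, a gap junction protein of the connexin family, read 745 and 389 in 129 against 257 and 155 in B6, and Mt3, a metallothionein, read 3886 and 4138 against 8434 and 9710. Gja1 was not called without B6 replicate 2, whereas Mt3, at -1.17 ± 0.11 (limma adjusted p = 0.00315), was called in all 4 such fits. In smooth muscle and pericyte genes Vtn, the adhesion protein vitronectin, read 90.9 and 84.0 against 217 and 274. It was the only 1 of 6 called, lower in 129 (8.43% of all genes tested).

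**Figure D5:**
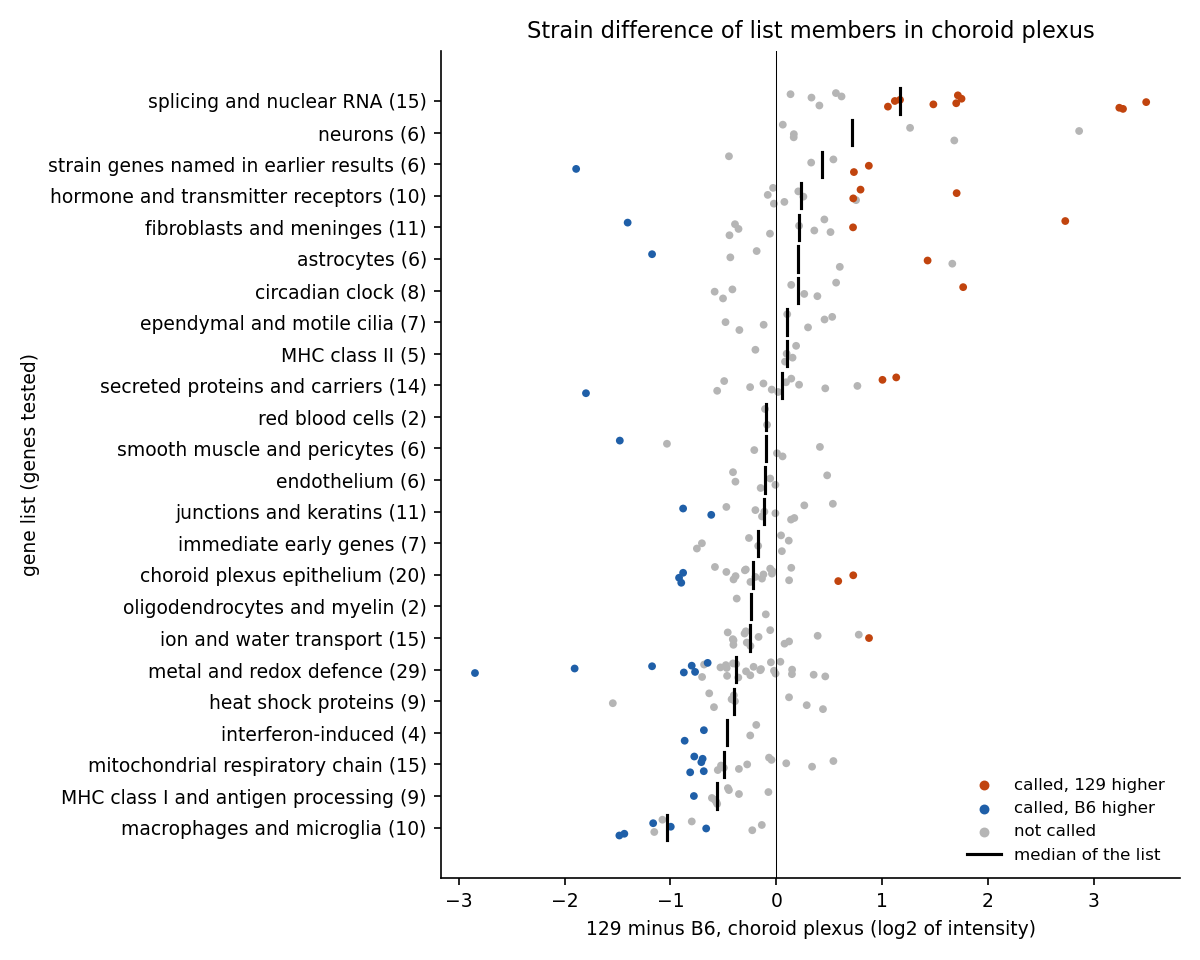
129 minus B6 difference in choroid plexus (log2 of intensity) of each tested member of 24 gene lists, with the number tested in brackets; red and blue points passed limma at an adjusted p of 0.05 and 1.5-fold and black bars are list medians. Splicing genes lie furthest to the right with a median of 1.17 and macrophage genes furthest to the left at -1.04, and grey points such as the neuronal genes did not pass.

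Of 15 genes of ion and water transport tested, the chloride transporter Clcn3 was the only one called (9.66% of all genes tested were called higher in 129 and 8.43% higher in B6), with 720 and 629 in 129 against 390 and 345 in B6. Slc12a2, the sodium-potassium-chloride cotransporter of the apical membrane, read 2664 and 2246 against 1984 and 1022 and was not called (limma adjusted p = 0.103). The water channel gene Aqp1 read 2206 and 2212 against 2507 and 2730. Among 14 genes of secreted proteins, Vegfa, the endothelial growth factor, read 197 and 284 against 105 and 111, a difference of 1.13 ± 0.22 (limma adjusted p = 0.0175). Rbp4, which carries retinol, was also called higher in 129, and Apod lower. Both B6 arrays of Rbp4 lay under the brightness limit, so it was tested only because 129 was high. Ttr, Igf2, Clu and Apoe differed by 0.14, 0.22, -0.04 and 0.02 and were not called.

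Of 29 redox and metal defence genes tested, 18 were apart with B6 higher and 3 with 129 higher, where 38.5% and 27.1% of all genes tested were. Limma called 7, all lower in 129 (8.43% of all genes). Besides Gpx3, Mgst1 and Mt3 these were Gpx4, which reduces lipid peroxides, Gsta4, Sod3 and Nqo1. Gpx4 read 797 and 719 in 129 against 1447 and 1328 in B6, a difference of -0.87 ± 0.14 (limma adjusted p = 0.0106), beside 0.03 in the other tissues. Gsta4 read 455 and 477 against 802 and 784.

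In the mitochondrial respiratory chain 10 of 15 genes were apart with B6 higher (38.5% of all genes tested) and 3 with 129 higher (27.1%). The 5 called genes, all lower in 129 (8.43% of all), were Cox4i1, Uqcrc1, Ndufv1, Sdhb and Cox5b, which belong to complexes I to IV. Uqcrc1 read 1538 and 1487 in 129 against 2367 and 2831 in B6, and Cox5b 1524 and 1545 against 2494 and 2442. The median of the list was -0.50 in choroid plexus and 0.02 in the other tissues. Of 10 receptor genes, 7 were apart with 129 higher (27.1% of all genes tested) and none with B6 higher (38.5%), and 3 were called higher in 129 (9.66%). Il1r1, the interleukin 1 receptor, read 167 and 230 against 50.6 and 71.2, a difference of 1.71 ± 0.26 (limma adjusted p = 0.00969), and the leptin receptor Lepr 199 and 205 against 110 and 122. Il1r1 kept its call in all 4 fits that left out an array and Lepr in 2 of them.

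Antigen presentation genes of MHC class I were apart in 9 of 9 genes with B6 higher (38.5% of all genes tested). The immunoproteasome subunit Psmb8 was the 1 gene called lower in 129 (8.43% of all). H2-K1, a class I heavy chain, read 901 and 1035 in 129 against 1256 and 1661 in B6. Limma called none of the 5 class II genes tested, with 0 at an unadjusted p under 0.05. It called none of 9 heat shock genes, with 5 at that p, beside 1681 of all 4545 genes tested. Among the heat shock genes, 5 were apart with B6 higher (38.5% of all genes tested) and 2 with 129 higher (27.1%). Hspa1a read 88.0 and 97.1 against 161 and 452, so that B6 replicate 2 was again the highest. Nr1d2, a circadian repressor, read 466 and 300 against 192 and 62.8 (limma adjusted p = 0.049), while Dbp, another clock output gene, followed the replicate and not the strain, with 309 and 84.7 against 441 and 133.

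The remaining lists had few calls or few tested members. Over all genes tested, limma called 9.66% higher in 129 and 8.43% higher in B6. Among 11 fibroblast genes Ogn and Fn1, the matrix protein fibronectin, were called higher in 129 and Mgp lower, and among 11 genes of junctions and keratins Krt18 and the tight junction gene Cldn3 were called lower. Of 4 interferon-induced genes Ifi27 and Ifitm3 were called lower in 129, by differences of -0.87 and -0.68. Limma called none of 7 genes of motile cilia, 6 of endothelium, 7 immediate early genes, 2 of oligodendrocytes and 2 of red blood cells. At an unadjusted p under 0.05 these lists held 2, 2, 2, 0 and 0 genes, beside 1681 of all 4545 genes tested. Of 6 strain genes known from earlier results of these data, Glo1 and Alad were called higher in 129 and Gas5 lower, which is no independent support.

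Gene length, which the comparison did not use, is given for the genes that were apart as a description. Genes higher in 129 spanned a median of 33.1 kb in the RefSeq annotation, genes higher in B6 12.3 kb and all genes tested 20.0 kb. The signal level is described too, but it comes from the same 4 arrays that chose the genes and set the brightness limit. Genes higher in 129 had a median signal in choroid plexus 0.24 below that in the other neural tissues on the log2 scale, a difference of -0.24, while genes higher in B6 were at 0.51 and all genes tested at 0.15. The median log2 signal itself was 7.29 for genes higher in 129 and 8.16 for genes higher in B6.

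Some genes went in opposite directions in choroid plexus and elsewhere. Ctse, the protease cathepsin E, read 324 and 370 in 129 against 192 and 197 in B6, a difference of 0.83 ± 0.16 (limma adjusted p = 0.0175). In the other neural tissues 129 was lower by 1.36 and in 19 of 19 tissues, and in body tissues lower by 1.90 and in 10 of 10. The difference between choroid plexus and the other neural tissues was 2.19 (limma adjusted p = 9.6e-13), a description because Ctse was chosen for its opposite directions. A second probe set of Ctse gave 0.74 in choroid plexus and -0.76 elsewhere. Apoc1, an apolipoprotein, read 37.4 and 36.3 against 98.0 and 123, a difference of -1.58 ± 0.24 (limma adjusted p = 0.00973), beside 0.67 in the other neural tissues. Both 129 arrays lay under the brightness limit, so Apoc1 was tested only because B6 was high. Erdr1 was higher in 129 in choroid plexus by 1.23 and lower elsewhere by 0.67, with a range of -2.06 to 1.45 over tissues, and it was higher in 129 in body tissues by 1.55. The other 5 genes of this kind, Mpdz, Itgb1bp1, Pvr, Rgs5 and Zyg11b, were apart in choroid plexus but not called there. For Rgs5 and Itgb1bp1 the direction depended on the probe set: a second one of Rgs5, brighter in choroid plexus, differed by -0.55 there and -1.87 elsewhere, and a second one of Itgb1bp1 by 0.29 and 0.42, the same way in both.

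The genes nearest to the 1.5-fold line, 0.58 on the log2 scale, were of similar size on both sides. Just inside it, with 129 higher, Calml4, Angel2 and Rbpj each differed by 0.59, and just outside Trip12, Ppp1r2 and Clcn5 by 0.58. With B6 higher, Ddt, Zfp688 and Inpp1 lay just inside at -0.59, and Emc8, Pcp4l1 and Cttn just outside at -0.58.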

How the data were processed

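Per the labels, total RNA was hybridised as biotin-labelled cRNA to 1-colour arrays. The deposited values are intensities per probe set on a linear scale, 5.98% of them below 0, with 75th percentiles of 172 to 176 on the choroid plexus arrays. How the authors computed and scaled these intensities: not given in the sources used here. Among 150 arrays, 2 with identical values under different labels (hippocampus of 129 replicate 1 and perirhinal cortex of DBA replicate 2) were left out. Of 12488 probe sets, 66 controls were left out and 10833 had 1 symbol, and a gene was read from the probe set brightest over the arrays used. Intensities under the 20th percentile (10.4) were raised to it and expressed as log2. A gene was tested if its mean over the 4 choroid plexus arrays passed 5.73, the median of all log2 values. Models were fitted with limma (version 3.58.1, R 4.3.3), letting the prior variance follow the mean level. The scripts were tested on simulated data, and p-values were adjusted over all genes tested. No array of another tissue entered the choroid plexus fit. The other neural tissues were fitted with tissue as a term, the difference between tissues as an interaction, and body tissues over 5 strains. The number of arrays limits precision. Genes named are the 12 largest differences and up to 8 largest shifts in each direction, up to 4 members of each list, strain genes of earlier results, genes at the 1.5-fold line, and, chosen after their values were seen, other called members and genes of opposite direction. Members and lists were chosen with earlier results of these data known.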

Additional observations from a re-analysis of the deposited data

Results flagged for a closer look

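Listed here are 16 genes, the 8 largest shifts in each direction among those passing limma's test of choroid plexus against the 19 other neural tissues. Other named genes, such as Ctse, Mrps12 and Gas5, passed that test too. Values are choroid plexus difference minus other-tissue difference, 129 minus B6, on the log2 scale. Towards 129 these were Ccl9 at 5.50, Leng8 at 3.68, Meg3 at 3.42, Clk4 at 3.29, Clk1 at 3.25, Mdm4 at 3.15, Rgs11 at 2.89 and Paxbp1 at 2.86. Towards B6 they were Gpx3 at -3.32, Ackr4 at -2.33, Apoc1 at -2.24, Cidea at -1.90, Cd52 at -1.90, Adh1 at -1.77, Pttg1 at -1.63 and Dlk1 at -1.52. The call of Cd52 was lost without B6 replicate 2, that of Pttg1 with the mean over probe sets, and that of Adh1 with the floor at the 10th percentile. Both B6 arrays of Ccl9, Clk4, Leng8, Mdm4, Meg3, Paxbp1 and Rgs11 lay under the brightness limit, as did both 129 arrays of Apoc1 and Cd52. The 16 genes were chosen for large values on the choroid plexus arrays or in this comparison, so the sizes are descriptions.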

How the results depend on the processing

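No named gene reversed its direction with a call under any alternative tried. Without a filter on dim genes, 1958 genes were apart with 129 higher. In the same setting limma called only 11 and 7 genes in choroid plexus for 129 and B6 higher, 1 and 4 of them among those called with the filter. It called 51 and 110 in the other tissues. Most leading named genes lost their choroid plexus call without the filter, among them Ccl9, Leng8, Meg3, Clk1, Clk4, Pttg1, Pla2g12a and Gpx3. The cause was not tested. Quantile normalization left 497 genes shifted towards B6. With 1 array left out, choroid plexus calls ran from 255 to 597 with 129 higher and from 150 to 599 with B6 higher. Shifts against the other tissues ran from 470 to 797 towards 129 and from 358 to 825 towards B6. The lowest counts came without B6 replicate 2. Other settings kept these counts within 1.5 times, but scaling to a common 75th percentile moved the median difference of all genes from -0.08 to -0.10. The number ranges in the titles are shared by strains, and replicate 2 minus 1 correlated across genes at 0.48 between them; with only 2 pairs this does not establish pairing. With this replicate block limma called 620 and 514 genes.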
